A study of Homo sapiens with 33 samples.

Results

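The small heat shock and BAG family genes were described here through 10 members, HSPB1, CRYAB, HSPB8, HSPB11 and BAG1 to BAG6, listed by gene symbol with earlier results of these data known. All 10 were among the 26475 gene symbols of the count table, and all 10 were among the 14613 genes that passed the filter on low counts. The measurement was RNA sequencing of total RNA from HEK293T cells, an established human embryonic kidney line, after transfection with a base editor or a control plasmid. A base editor joins a Cas9 nickase, which cuts 1 DNA strand, to a deaminase that changes a base near the guide's target, and the study asked how such constructs alter the transcriptome. Cells were sorted as GFP-positive 36 to 40 h after transfection, every editor plasmid also carrying EGFP joined through a P2A peptide. The 33 libraries fall into 11 groups of 3.

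The controls were GFP without a guide (GFP) and Cas9 nickase (nCas9) with the HEKsite2 or the RNF2 guide. ABEmax and miniABEmax-V82G are adenine base editors, Target-AID is a cytosine base editor, and SpACE is the construct of this name in the labels, and the series title speaks of bimodal adenine and cytosine editing. Each of the 4 editors was used with either guide, so a group is named by its construct and its guide. The labels do not say whether the 3 libraries of a group came from separate cultures, so the spread between them may be technical. All libraries are of 1 cell line, taken through transfection and sorting, and no untransfected cells are among the groups. In sorted bulk cells, fewer cells expressing a gene and less RNA per cell cannot be told apart.

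Small heat shock proteins hold unfolding proteins in a soluble state without using ATP. HSPB1 and CRYAB (HSPB5) form large oligomers, HSPB8 works with BAG3, and HSPB11, also called IFT25, is a subunit of the intraflagellar transport complex in spite of its name. The BAG domain of most BAG proteins binds the ATPase domain of HSP70 and releases its nucleotide. BAG1 couples HSP70 clients to the proteasome, and BAG3 with HSPB8 couples them to selective autophagy. BAG6 acts in the delivery or removal of membrane proteins. HSPB1, CRYAB and BAG3 are known targets of heat shock factor 1 (HSF1).

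Total counts ran from 6790209 to 11200406 per library with a median of 8524841, and levels are given as CPM, reads relative to a library size scaled by the trimmed mean of M values. No pair of libraries was identical. Replicate 3 of Target-AID stood apart with either guide, since its chi-square per degree of freedom over genes was 9.92 and 13.5 against its fellows with HEKsite2 and 20.7 and 12.3 with RNF2, whereas all other replicate pairs gave at most 5.02. With both of these libraries left out, an alternative chosen after seeing the data, the members called in Target-AID against nCas9 numbered 8 with HEKsite2, as with all libraries, and 9 with RNF2, against 8. BAG3 then stood at 2.42 and 2.14 log2 in Target-AID against nCas9, CRYAB at 4.61 and 4.53, HSPB8 at 1.92 and 1.52, HSPB1 at 1.12 and 0.85 and BAG2 at 0.63 and 0.54. Of 48 calls of a member in comparisons with Target-AID, 45 were kept, and the 3 lost are given beside their results. The 6 genes usually present in HEK293T summed to between 343 and 527 CPM over the libraries. Of markers of other cell types, the 6 hepatocyte genes summed to 1.93 to 3.39 CPM in Target-AID and to at most 0.92 CPM elsewhere, the 5 leukocyte genes to at most 4.49 CPM and the 3 endothelial genes to at most 1.75 CPM. The 5 fibroblast genes summed to 10.2 to 27.4 CPM, highest in GFP, and the 6 muscle and lens genes, from tissues rich in small heat shock proteins, to 5.48 to 11.04 CPM. No marker was at 0 in every group, and the part of these markers in any result was not tested.

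Of the 10 members, 5 rose in every editor group, as did 1.16% of all genes tested. HSPB1, CRYAB, HSPB8, BAG2 and BAG3 were each called higher than in nCas9 with the same guide in all 8 comparisons of an editor with nCas9, where called means a Benjamini-Hochberg adjusted p under 0.05 in edgeR's quasi-likelihood test over all genes tested. For HSPB1, CRYAB, HSPB8 and BAG3, the 24 editor libraries lay above all 9 control libraries, a separation seen in 0.794% of all genes tested. CRYAB passed the filter on low counts through the editor groups alone, so its place in both counts depends on its being high there. HSPB1, HSPB8, BAG2 and BAG3 passed in all 11 groups. BAG5 was called higher in ABEmax alone among the 4 editors, with both guides. BAG4 was called lower with RNF2 than with HEKsite2 in 4 of the 5 constructs that carried a guide, and HSPB11, BAG1 and BAG6 lay between -0.58 and 0.30 on the log2 scale against nCas9.

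**Figure D1:**
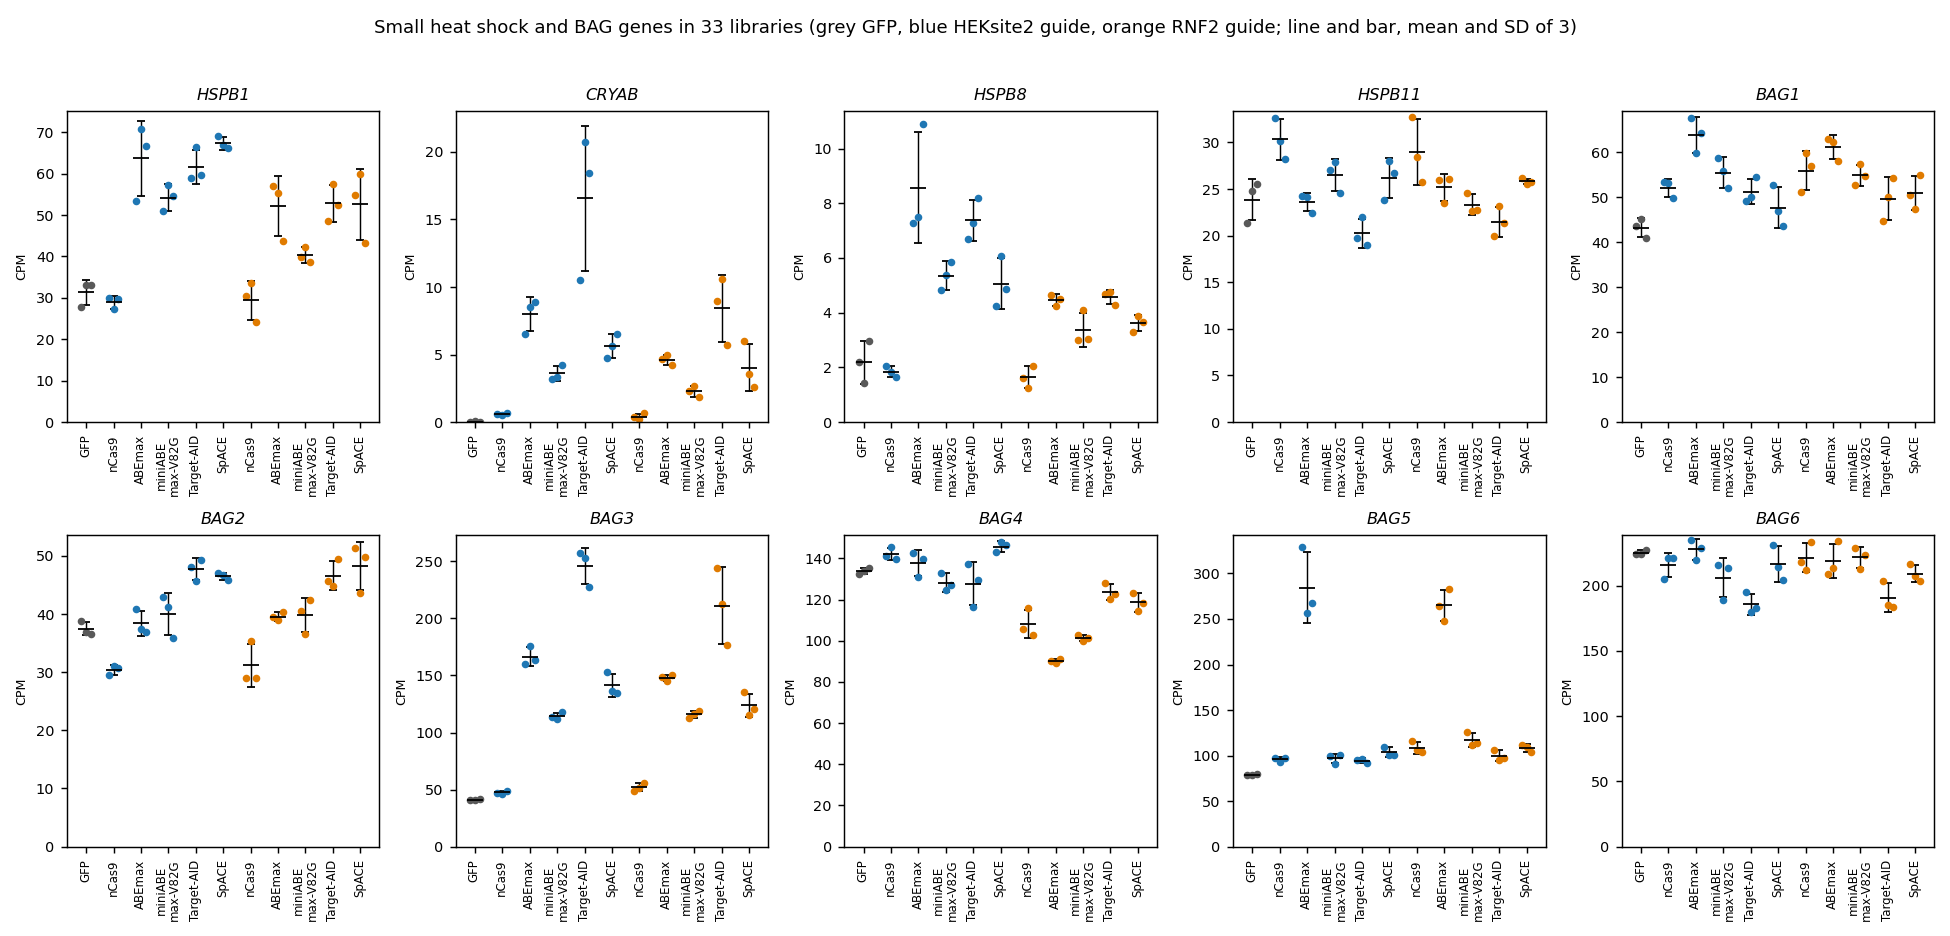
Level of the 10 genes in CPM (vertical axis, from 0) in each of the 33 libraries, by group (horizontal axis); points are libraries, the line and bar are the mean and SD of 3. HSPB1, CRYAB, HSPB8 and BAG3 stand higher in all 24 editor libraries than in the 9 libraries of GFP and nCas9, and BAG5 stands apart in the 6 ABEmax libraries.

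Across all 11 groups, the test for any difference called 10 of 10 members, and it called 73.9% of all genes tested, so this count is near the background. CRYAB passed the filter through 8 of the 11 groups and would not have passed in GFP or nCas9 alone, so a difference between editors and controls was needed for it to be tested at all. Against nCas9 with the HEKsite2 guide, ABEmax had 7 members called higher and 1 lower, where the test called 15.9% of all genes, 8.31% higher and 7.55% lower. miniABEmax-V82G had 5 higher and 0 lower (background 10.3% of all genes, 5.02% higher and 5.32% lower). Target-AID had 5 and 3 (background 40.6% of all genes, 21.5% higher and 19.1% lower), and SpACE 5 and 0 (background 21% of all genes, 10.7% higher and 10.2% lower). The RNF2 guide gave 6 higher and 1 lower in ABEmax (background 11.2% of all genes, 6.51% higher and 4.66% lower). For miniABEmax-V82G the counts were 5 and 1 (background 12.6% of all genes, 6.88% higher and 5.72% lower), for Target-AID 6 and 2 (background 35.2% of all genes, 19.4% higher and 15.8% lower), and for SpACE 5 and 0 (background 14.7% of all genes, 8.03% higher and 6.68% lower). The median log2 fold change of the 10 members lay between 0.23 and 0.74 in these 8 comparisons, whereas that of all genes lay between -0.0052 and 0.0035. The 4 comparisons of a guide share its 3 nCas9 libraries, so they are not independent of each other.

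**Figure D2:**
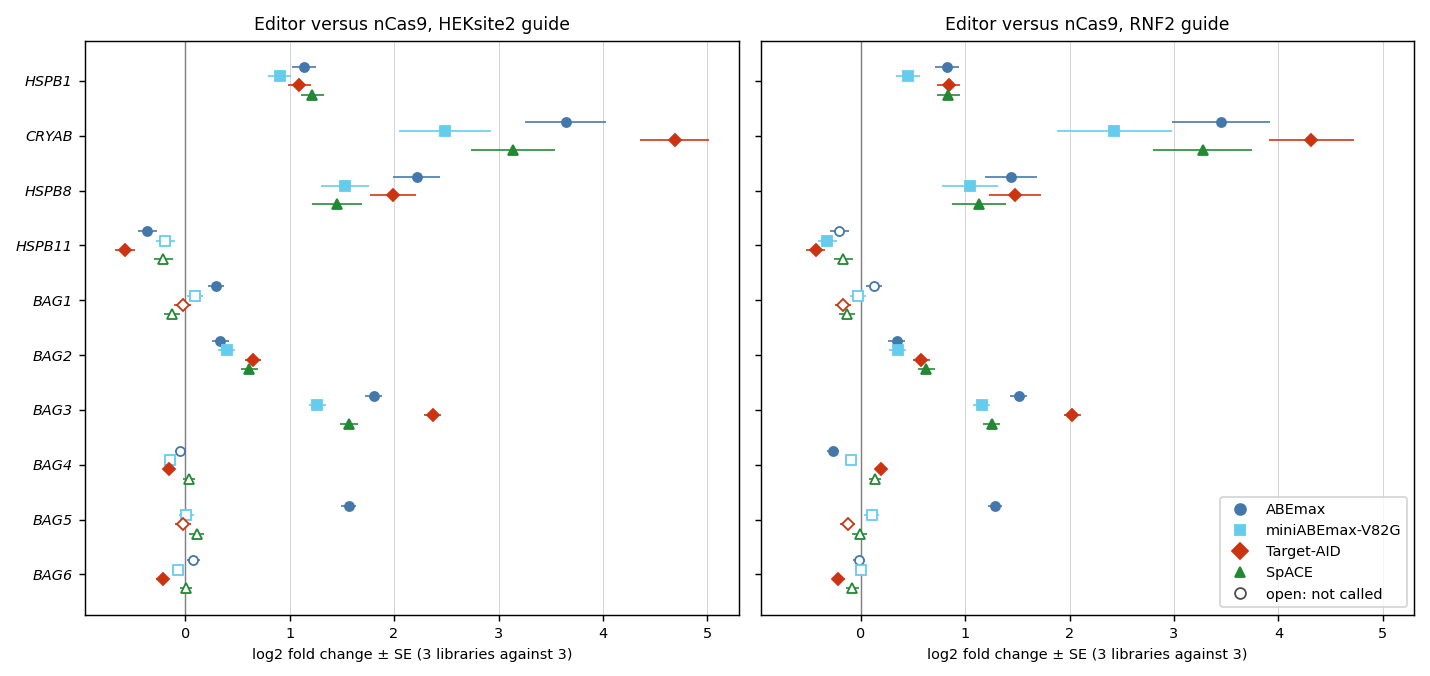
Log2 fold change with its SE (horizontal axis) of each gene in each editor against nCas9, in separate panels for the HEKsite2 and RNF2 guides, from 3 libraries against 3; filled symbols are called at an adjusted p under 0.05 and open symbols are not. HSPB1, CRYAB, HSPB8, BAG2 and BAG3 lie to the right of 0 for every editor, and the filled symbols of BAG5 are those of ABEmax.

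BAG3 is the co-chaperone that links HSP70 and HSPB8 to selective autophagy, and its gene lies at chr10:119651370-119677819 on the plus strand (GRCh38) with 4 exon blocks. Its level in GFP was 40.7, 41 and 41.6 CPM. In nCas9 it was 47.4, 46.3 and 49.1 CPM with HEKsite2 and 48.6, 51.5 and 55.7 CPM with RNF2. The 9 control libraries thus lay between 40.7 and 55.7 CPM. Target-AID held the highest levels of the series, 257, 253 and 228 CPM with HEKsite2 and 244, 213 and 177 CPM with RNF2. ABEmax came next at 159.7, 176 and 164 CPM and 149, 145 and 150.3 CPM with the same order of guides. SpACE and miniABEmax-V82G were lower, with group means of 141 ± 10.0 and 124 ± 10.3 CPM for SpACE and 114 ± 3.02 and 116 ± 3.02 CPM for miniABEmax-V82G (SD, n = 3). Every editor library stood above every control library, the lowest of the 24 at 112 CPM. Against nCas9, BAG3 rose by 2.37 ± 0.081 (adjusted p = 9.75e-26) log2 in Target-AID with HEKsite2, a 5.16-fold difference, and by 2.03 ± 0.08 (adjusted p = 1.91e-23) with RNF2. The rise was 1.81 ± 0.083 (adjusted p = 1.23e-20) and 1.51 ± 0.081 (adjusted p = 4.95e-18) in ABEmax, 1.57 ± 0.082 (adjusted p = 3.54e-18) and 1.25 ± 0.082 (adjusted p = 6.36e-15) in SpACE, and 1.26 ± 0.083 (adjusted p = 6.87e-15) and 1.16 ± 0.083 (adjusted p = 1.48e-13) in miniABEmax-V82G. These editors also differed among themselves, as Target-AID exceeded ABEmax by 0.54 ± 0.051 (adjusted p = 2.95e-11) and miniABEmax-V82G lay below ABEmax, at -0.45 ± 0.053 (adjusted p = 8.27e-08). SpACE lay above miniABEmax-V82G by 0.20 ± 0.053 (adjusted p = 0.0184), a difference lost without SpACE HEKsite2 replicate 1 (0.0518) or SpACE RNF2 replicate 1 (0.0874), the adjusted p in brackets. Of the 10 pairs of groups next to each other in order of level, 6 overlapped, and the gaps stood between Target-AID and ABEmax, between the ABEmax groups, between miniABEmax-V82G and nCas9, and between nCas9 and GFP.

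CRYAB, the alpha-B crystallin of lens and muscle, was the member with the widest range. The gene lies at chr11:111908565-111923722 on the minus strand (GRCh38). It had 1 read over the 3 GFP libraries, with counts of 0, 1 and 0. nCas9 gave 0.606, 0.561 and 0.706 CPM with HEKsite2, from 15 reads, and 0.348, 0.249 and 0.641 CPM with RNF2, from 10 reads. The controls were thus near 0 and the editors at a few CPM or more. Target-AID had 10.5, 20.8 and 18.5 CPM with HEKsite2 and 8.96, 10.6 and 5.69 CPM with RNF2. ABEmax had 6.55, 8.51 and 8.88 CPM and 4.66, 4.95 and 4.24 CPM with the same guides. The SpACE groups had means of 5.64 ± 0.919 and 4.04 ± 1.74 CPM and those of miniABEmax-V82G 3.60 ± 0.574 and 2.26 ± 0.417 CPM (SD, n = 3). The lowest editor library, at 1.82 CPM, stood above the highest control library, at 0.706 CPM. Against nCas9 the log2 fold change was 4.69 ± 0.33 (adjusted p = 5.66e-15) and 4.32 ± 0.40 (adjusted p = 2.83e-11) in Target-AID with HEKsite2 and RNF2. It was 3.64 ± 0.39 (adjusted p = 3.18e-09) and 3.45 ± 0.47 (adjusted p = 1.22e-06) in ABEmax, 3.14 ± 0.41 (adjusted p = 2.76e-07) and 3.27 ± 0.47 (adjusted p = 3.24e-06) in SpACE, and 2.49 ± 0.44 (adjusted p = 1.70e-04) and 2.43 ± 0.55 (adjusted p = 0.00273) in miniABEmax-V82G. As a ratio of summed reads per library size, Target-AID with HEKsite2 was 26.3 (95% exact interval 15.8 to 47.4) times nCas9 and miniABEmax-V82G with RNF2 was 5.53 (95% exact interval 2.79 to 12.2) times, and these intervals cover counting error only.

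With a single read in GFP, the size of the CRYAB difference from that group is given by reads, and the fitted test only as a call. nCas9 with HEKsite2 was 18.7 (95% exact interval 2.87 to 786) times GFP and with RNF2 12.2 (95% exact interval 1.73 to 528) times. Target-AID with HEKsite2 was 492 (95% exact interval 87.8 to 19469) times. The quasi-likelihood test called CRYAB higher in nCas9 than in GFP with HEKsite2 (adjusted p = 0.00837) and with RNF2 (adjusted p = 0.0421). The second of these calls was lost without GFP replicate 1 (0.116), GFP replicate 3 (0.108), nCas9 RNF2 replicate 1 (0.0587) or nCas9 RNF2 replicate 3 (0.156), the adjusted p in brackets. Among the editors, CRYAB was higher in Target-AID than in ABEmax by 0.95 ± 0.16 (adjusted p = 5.05e-06) and than in miniABEmax-V82G by 2.04 ± 0.18 (adjusted p = 3.33e-12). SpACE stood below Target-AID, at -1.30 ± 0.16 (adjusted p = 2.30e-08). SpACE against ABEmax was at -0.34 ± 0.18 (adjusted p = 0.191) with a 95% interval of -0.71 to 0.031, and was not called. Its excess of 0.75 ± 0.21 (adjusted p = 0.0253) over miniABEmax-V82G was lost without miniABEmax-V82G HEKsite2 replicate 1 (0.0559), miniABEmax-V82G HEKsite2 replicate 2 (0.0511), SpACE HEKsite2 replicate 3 (0.0727), SpACE RNF2 replicate 1 (0.174) or miniABEmax-V82G RNF2 replicate 3 (0.079). CRYAB shares 328 exonic bases with HSPB2 on the opposite strand, but HSPB2, another small heat shock gene, was at or below 0.13 CPM in every group.

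HSPB8 is the small heat shock protein that binds BAG3, and its gene at chr12:119178642-119221131 (plus strand, GRCh38) was of low level throughout. It stood at 2.19, 1.41 and 2.98 CPM in GFP. nCas9 held it at 2.06, 1.82 and 1.65 CPM with HEKsite2 and 1.62, 1.25 and 2.05 CPM with RNF2. ABEmax with HEKsite2 had the highest mean, from libraries of 7.29, 7.50 and 10.9 CPM, and replicate 3 was well above the others. Target-AID with that guide had 6.68, 7.27 and 8.18 CPM. With RNF2 the levels were 4.66, 4.23 and 4.50 CPM in ABEmax and 4.69, 4.76 and 4.30 CPM in Target-AID. miniABEmax-V82G had means of 5.35 ± 0.520 and 3.38 ± 0.619 CPM and SpACE of 5.06 ± 0.927 and 3.62 ± 0.285 CPM. All 24 editor libraries again lay above the 9 control libraries, by a narrow margin of 3.01 against 2.98 CPM. The log2 fold change against nCas9 was 2.22 ± 0.22 (adjusted p = 6.91e-10) in ABEmax and 1.99 ± 0.22 (adjusted p = 1.71e-09) in Target-AID with HEKsite2. SpACE gave 1.45 ± 0.24 (adjusted p = 1.79e-05) and miniABEmax-V82G 1.53 ± 0.23 (adjusted p = 1.71e-05) with that guide. With RNF2 the values were 1.44 ± 0.25 (adjusted p = 1.17e-04), 1.48 ± 0.24 (adjusted p = 7.32e-06), 1.13 ± 0.26 (adjusted p = 0.0019) and 1.04 ± 0.27 (adjusted p = 0.00761) in ABEmax, Target-AID, SpACE and miniABEmax-V82G. The miniABEmax-V82G call with RNF2 was lost without nCas9 RNF2 replicate 2 (0.064) or miniABEmax-V82G RNF2 replicate 2 (0.0657), the adjusted p in brackets. HSPB8 was lower with RNF2 than with HEKsite2 in ABEmax, at -0.95 ± 0.19 (adjusted p = 0.00142), a call lost without ABEmax HEKsite2 replicate 3 (0.0577). In miniABEmax-V82G it was lower, at -0.65 ± 0.21 (adjusted p = 0.0352), lost without miniABEmax-V82G HEKsite2 replicate 2 (0.0997), miniABEmax-V82G HEKsite2 replicate 3 (0.102), miniABEmax-V82G RNF2 replicate 1 (0.132) or miniABEmax-V82G RNF2 replicate 3 (0.131).

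HSPB1, or HSP27, is the widely expressed small heat shock protein and lies at chr7:76302544-76304295 on the plus strand (GRCh38). GFP gave 27.8, 33.1 and 33.1 CPM. nCas9 gave 30.0, 27.2 and 29.6 CPM with HEKsite2 and 30.5, 33.6 and 24.2 CPM with RNF2. No difference between these controls was called, with nCas9 against GFP at -0.11 ± 0.12 (adjusted p = 0.489) and -0.088 ± 0.12 (adjusted p = 0.58). With HEKsite2, SpACE reached 69.1, 66.9 and 66.1 CPM, ABEmax 53.4, 70.9 and 66.7 CPM and Target-AID 59, 66.4 and 59.6 CPM. miniABEmax-V82G reached 50.9, 57.2 and 54.5 CPM with HEKsite2 and 39.8, 42.4 and 38.6 CPM with RNF2, the lowest editor group. The other RNF2 groups had means of 52.1 ± 7.24 CPM in ABEmax, 52.8 ± 4.54 in Target-AID and 52.7 ± 8.56 in SpACE. No editor library fell below 38.6 CPM and no control library exceeded 33.6 CPM. The rise over nCas9 with HEKsite2 was 1.22 ± 0.11 (adjusted p = 5.89e-11) in SpACE, 1.14 ± 0.11 (adjusted p = 5.35e-10) in ABEmax, 1.09 ± 0.11 (adjusted p = 1.79e-10) in Target-AID and 0.90 ± 0.11 (adjusted p = 3.49e-07) in miniABEmax-V82G. With RNF2 it was 0.84 ± 0.11 (adjusted p = 6.79e-07), 0.82 ± 0.11 (adjusted p = 1.58e-06), 0.84 ± 0.11 (adjusted p = 1.14e-07) and 0.45 ± 0.12 (adjusted p = 0.00845) in the same order. The last of these was lost without nCas9 RNF2 replicate 3 (0.0797), the adjusted p in brackets. miniABEmax-V82G was below ABEmax, at -0.30 ± 0.075 (adjusted p = 0.00984), while Target-AID and SpACE were within -0.16 to 0.13 and -0.098 to 0.19 log2 of ABEmax (95% intervals). Reads of processed pseudogenes of HSPB1 may be shared with it, and how such reads were counted is not given in the sources used here.

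BAG2, which binds HSP70 and inhibits the ubiquitin ligase CHIP, rose less but in every editor. It is at chr6:57172326-57189833 on the plus strand (GRCh38). GFP held 38.8, 37 and 36.6 CPM, above nCas9 at 29.5, 31 and 30.7 CPM with HEKsite2 and 29, 35.4 and 29.1 CPM with RNF2. SpACE held 47, 46.7 and 45.9 CPM and 51.3, 43.5 and 49.7 CPM, and Target-AID 48.1, 45.7 and 49.3 CPM and 45.6, 44.8 and 49.4 CPM. ABEmax and miniABEmax-V82G had group means of 38.4 to 40.0 CPM, and all of these groups but ABEmax with RNF2 overlapped GFP. Against nCas9 with HEKsite2, BAG2 rose by 0.65 ± 0.08 (adjusted p = 1.83e-08) in Target-AID, 0.61 ± 0.08 (adjusted p = 3.54e-07) in SpACE, 0.40 ± 0.082 (adjusted p = 9.76e-04) in miniABEmax-V82G and 0.34 ± 0.085 (adjusted p = 0.00489) in ABEmax. With RNF2 the rises were 0.58 ± 0.079 (adjusted p = 2.20e-07), 0.63 ± 0.08 (adjusted p = 2.28e-07), 0.35 ± 0.082 (adjusted p = 0.00358) and 0.34 ± 0.082 (adjusted p = 0.00435). Against GFP, BAG2 was called higher in Target-AID at 0.33 ± 0.066 (adjusted p = 4.97e-05) and SpACE at 0.34 ± 0.066 (adjusted p = 6.01e-05). It was not called in ABEmax at 0.056 ± 0.068 (adjusted p = 0.508) or miniABEmax-V82G at 0.091 ± 0.067 (adjusted p = 0.271). nCas9 itself lay below GFP at -0.30 ± 0.082 (adjusted p = 0.00293) with HEKsite2 and -0.27 ± 0.081 (adjusted p = 0.00735) with RNF2, the latter lost without nCas9 RNF2 replicate 1 (0.0602) or nCas9 RNF2 replicate 3 (0.0544), the adjusted p in brackets. BAG2 shares 2842 exonic bases with RAB23 on the opposite strand, and the strand setting of the counting is not given in the sources used here. RAB23 was lower in ABEmax, at -0.29 ± 0.082 (adjusted p = 0.0122) with HEKsite2 and -0.28 ± 0.08 (adjusted p = 0.0181) with RNF2. It was also lower in SpACE with HEKsite2, at -0.22 ± 0.079 (adjusted p = 0.0423). Elsewhere it was not called against nCas9, with Target-AID at -0.12 and -0.022. ZNF451, which lies 2019 bases before BAG2 on the same strand, was called higher in Target-AID, at 0.33 and 0.24, and in SpACE with HEKsite2, at 0.18. It was not called in the other comparisons with nCas9.

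RefSeq promoter sequence (GRCh38.p14) was used for 7 of the 10 members, in 9 windows. Windows of the chromosome that holds BAG4 were left out, and CRYAB and HSPB11 had none. The 250 bases before each start were searched on both strands, without regard to overlap, for pairs of the heat shock element unit, GAANNTTC and TTCNNGAA. Either pair occurs in 11.6% of all 35116 windows of this length that were searched, GAANNTTC in 5.78% and TTCNNGAA in 6.62%. Of the 7 members, 3 hold GAANNTTC, a count of genes, whereas the shares above are of windows. All 3 are among the genes that rose in every editor, as is BAG3, which holds neither pair. Whether the pair goes with the rise was not tested. The windows that hold GAANNTTC are shown with the pair in capitals. They lie at chr7:76302480-76302509 (HSPB1), chr12:119178832-119178861 (HSPB8) and chr6:57172191-57172220 (BAG2), all on the plus strand and printed 5′ to 3′.
HSPB1: ccttaacgagaGAAGGTTCcagatgagggc
HSPB8: tcatcacctccGAATATTCctgtgacagga
BAG2: tcgaccgatagGAACCTTCgcgtgggggga
Positions count from the RefSeq start, whose window ends at base 76302672 in HSPB1, 119178930 in HSPB8, 57172325 in BAG2 and 119651379 in BAG3. For HSPB1, HSPB8 and BAG3 that is inside the GENCODE gene span given above, which begins earlier, and the printed HSPB8 stretch lies within that span. The pair stands 182 to 175 bases before the RefSeq start in HSPB1, 88 to 81 in HSPB8 and 124 to 117 in BAG2. A run of 3 units in alternating orientation, each pair 2 bases apart, is in 0.441% of all windows and in 0 of the members' windows. The BAG3 window holds neither pair, and a search added after its sequence was seen found TGACTCA, an AP-1 motif, 19 to 13 bases before the RefSeq start at chr10:119651350-119651379.
BAG3: attatagccgaTGACTCAgggcggagctcc
TGACTCA or TGAGTCA is in 4.2% of all windows. A match describes these letters and is neither a bound site nor a cause of the levels measured.

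BAG5, which holds several BAG domains in a row and slows HSP70, separated ABEmax from every other group. It lies at chr14:103556544-103562831 on the minus strand (GRCh38). GFP held 78.6, 78.2 and 80.0 CPM. nCas9 held 96.9, 93.2 and 97.9 CPM with HEKsite2 and 116, 107 and 104 CPM with RNF2. ABEmax held 329, 257 and 267 CPM and 264, 248 and 283 CPM. The 6 ABEmax libraries thus lay between 248 and 329 CPM and the other 27 libraries between 78.2 and 126 CPM. miniABEmax-V82G had 99.3, 91 and 100.3 CPM with HEKsite2 and 126, 111 and 114 CPM with RNF2. Target-AID and SpACE had group means of 94.5 ± 2.42 and 104 ± 5.32 CPM with HEKsite2, and 99.7 ± 5.94 and 108 ± 4.17 CPM with RNF2. Against nCas9 the ABEmax difference was 1.57 ± 0.071 (adjusted p = 1.02e-20), or 2.96-fold, with HEKsite2 and 1.28 ± 0.07 (adjusted p = 6.12e-18), or 2.44-fold, with RNF2. The other 6 comparisons ranged from -0.13 in Target-AID with RNF2 to 0.11 in SpACE with HEKsite2 and were not called. The editors differed in a direct test: miniABEmax-V82G was below ABEmax, at -1.37 ± 0.049 (adjusted p = 2.93e-24), SpACE was below ABEmax, at -1.37 ± 0.049 (adjusted p = 2.48e-24), and Target-AID was below ABEmax, at -1.50 ± 0.049 (adjusted p = 1.56e-26). SpACE was not called against miniABEmax-V82G, at -0.0085 ± 0.051 (adjusted p = 0.954) with a 95% interval of -0.11 to 0.094. In miniABEmax-V82G, BAG5 was higher with RNF2 than with HEKsite2 by 0.28 ± 0.072 (adjusted p = 0.0127), lost without miniABEmax-V82G HEKsite2 replicate 2 (0.099) or miniABEmax-V82G RNF2 replicate 1 (0.105), the adjusted p in brackets. Both nCas9 groups lay above GFP, by 0.28 ± 0.074 (adjusted p = 0.00221) and 0.46 ± 0.073 (adjusted p = 2.49e-06).

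The genes next to BAG5 did not show this contrast to that size. KLC1, a kinesin light chain gene, overlaps BAG5 on the opposite strand with 0 shared exonic bases, and APOPT1 starts 131 bases before BAG5 on the opposite strand. KLC1 was at 0.17 ± 0.059 (adjusted p = 0.0418) in ABEmax against nCas9 with HEKsite2 and at 0.23 ± 0.058 (adjusted p = 0.00697) with RNF2, and at 0.29 ± 0.057 (adjusted p = 9.72e-05) in Target-AID with HEKsite2. It was also called in Target-AID with RNF2, at 0.18 (adjusted p = 0.0106), and in SpACE with HEKsite2, at 0.21 (adjusted p = 0.00704). APOPT1 was at -0.041 ± 0.095 (adjusted p = 0.826) and 0.013 ± 0.094 (adjusted p = 0.953) in the ABEmax comparisons. Against nCas9 it was called in Target-AID with HEKsite2 alone, at -0.36 ± 0.094 (adjusted p = 0.00178).

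**Figure D3:**
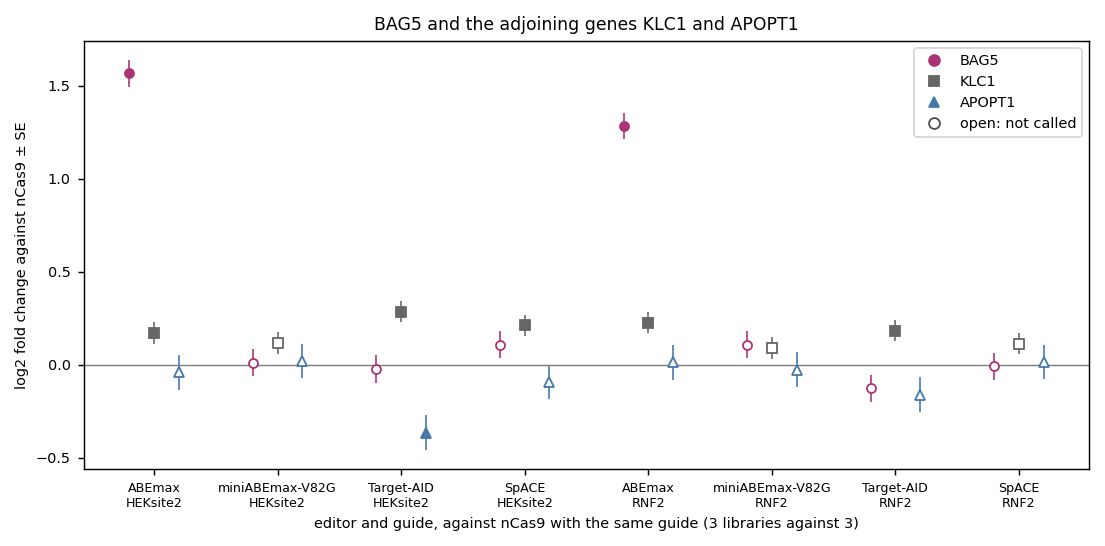
Log2 fold change with its SE (vertical axis) of BAG5 and of the adjoining genes KLC1 and APOPT1 in each editor against nCas9 with the same guide (horizontal axis), 3 libraries against 3; filled symbols are called and open symbols are not. BAG5 stands at 1.57 and 1.28 in ABEmax, where KLC1 stands at 0.17 and 0.23.

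BAG4, the silencer of death domains that binds TNF receptor 1, differed between the guides in 4 of the 5 constructs that carried one. GFP, with no guide, held 132, 134 and 135 CPM. nCas9 held 141, 145 and 139.9 CPM with HEKsite2 and 106, 116 and 103 CPM with RNF2, which did not overlap. ABEmax fell from 143, 131 and 139.8 CPM with HEKsite2 to 90.2, 89 and 91.2 CPM with RNF2, the lowest group. miniABEmax-V82G had 133, 124 and 127 CPM and 103, 99.8 and 101 CPM, and SpACE 143, 148 and 146 CPM and 123, 114 and 118 CPM, again with no overlap between guides. Target-AID had 137, 117 and 129 CPM with HEKsite2 and 128, 120.4 and 123 CPM with RNF2, which overlapped. The difference of RNF2 from HEKsite2 was -0.39 ± 0.056 (adjusted p = 2.35e-05) in nCas9, -0.61 ± 0.058 (adjusted p = 1.34e-09) in ABEmax and -0.34 ± 0.057 (adjusted p = 2.12e-04) in miniABEmax-V82G. It was -0.30 ± 0.055 (adjusted p = 0.0173) in SpACE, a call lost without SpACE HEKsite2 replicate 1 (0.0775), SpACE HEKsite2 replicate 2 (0.113), SpACE HEKsite2 replicate 3 (0.0757), SpACE RNF2 replicate 2 (0.277) or SpACE RNF2 replicate 3 (0.128), the adjusted p in brackets. Target-AID gave -0.045 ± 0.055 (adjusted p = 1) with a 95% interval of -0.16 to 0.066. Compared with nCas9, BAG4 in Target-AID was -0.15 ± 0.055 (adjusted p = 0.0233) with HEKsite2 and 0.19 ± 0.056 (adjusted p = 0.00619) with RNF2. The first of these was lost without nCas9 HEKsite2 replicate 2 (0.0837) or Target-AID HEKsite2 replicate 2 (0.256), without the filter (0.0511) and in the fit of the compared groups alone (0.0791), where the second was lost too (0.0762). The interaction of Target-AID and guide was 0.35 ± 0.079 (adjusted p = 0.0444), where the test called 0.164% of all genes, 0.137% higher and 0.0274% lower, and it was lost in 10 of the 12 fits that left out 1 library, with adjusted p up to 0.215, without both Target-AID replicate 3 libraries (0.0755), without the filter (0.0639) and in the fit of the compared groups alone (0.456). ABEmax with RNF2 was the other called difference from nCas9, at -0.26 ± 0.058 (adjusted p = 0.00207). nCas9 with HEKsite2 lay within -0.024 to 0.20 of GFP (95% interval), while nCas9 with RNF2 lay at -0.31 ± 0.056 (adjusted p = 2.30e-05). BAG4 shares 129 exonic bases with LSM1 on the opposite strand, a gene that was at -0.048 ± 0.086 (adjusted p = 0.785) in ABEmax with RNF2 and -0.27 ± 0.086 (adjusted p = 0.0128) in Target-AID with RNF2 against nCas9.

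BAG1, which links HSP70 to the proteasome and lies at chr9:33247820-33264720 on the minus strand (GRCh38), was lowest in GFP at 43.5, 45.2 and 41.1 CPM. Its highest levels were in ABEmax, 67.7, 59.7 and 64.3 CPM with HEKsite2 and 63, 62.3 and 58.1 CPM with RNF2. All 10 pairs of groups next to each other in order of level overlapped. Of the 8 comparisons with nCas9, ABEmax with HEKsite2 alone was called, at 0.30 ± 0.078 (adjusted p = 0.00742), and ABEmax with RNF2 was at 0.13 ± 0.076 (adjusted p = 0.289). Between editors, BAG1 was lower than in ABEmax in Target-AID, at -0.31 ± 0.054 (adjusted p = 1.20e-05) and in SpACE, at -0.34 ± 0.055 (adjusted p = 1.15e-05). In miniABEmax-V82G it was lower, at -0.18 ± 0.054 (adjusted p = 0.0441), a call lost in 8 of the 12 fits without 1 library, with adjusted p up to 0.121, and with DESeq2. nCas9 lay above GFP by 0.27 ± 0.078 (adjusted p = 0.00639) with HEKsite2 and 0.37 ± 0.078 (adjusted p = 1.87e-04) with RNF2.

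BAG6, a scaffold for newly made membrane proteins at chr6:31639028-31652705 on the minus strand (GRCh38), had the narrowest span of group means, relative to its level, among the members, from 186 to 228 CPM. GFP held 224, 224 and 227 CPM. Target-AID was lowest, with 195, 179.8 and 183 CPM with HEKsite2 and 204, 185 and 184 CPM with RNF2. It lay below nCas9, at -0.22 ± 0.06 (adjusted p = 0.00368) and -0.21 ± 0.06 (adjusted p = 0.00486), and below ABEmax, at -0.25 ± 0.043 (adjusted p = 1.07e-05). The other 6 comparisons with nCas9 lay between -0.08 and 0.078 and were not called. BAG6 shares 136 exonic bases with APOM on the opposite strand, which was at or below 1.91 CPM in every group.

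HSPB11, the intraflagellar transport subunit, was the member that fell most against nCas9. It lies at chr1:53916574-53945929 on the minus strand (GRCh38). nCas9 held 32.6, 30.1 and 28.2 CPM with HEKsite2 and 32.7, 28.4 and 25.7 CPM with RNF2, the highest groups. GFP held 21.3, 24.8 and 25.5 CPM and Target-AID 19.7, 22 and 19 CPM and 19.9, 23.2 and 21.4 CPM. Target-AID was below nCas9, at -0.58 ± 0.093 (adjusted p = 3.28e-06) with HEKsite2 and -0.43 ± 0.092 (adjusted p = 2.87e-04) with RNF2. ABEmax with HEKsite2 was at -0.36 ± 0.095 (adjusted p = 0.00701), a call lost without nCas9 HEKsite2 replicate 1 (0.0619), the adjusted p in brackets. miniABEmax-V82G with RNF2 was at -0.32 ± 0.094 (adjusted p = 0.0203), lost without nCas9 RNF2 replicate 1 (0.183), nCas9 RNF2 replicate 2 (0.0509), miniABEmax-V82G RNF2 replicate 2 (0.0785) or miniABEmax-V82G RNF2 replicate 3 (0.0732). The remaining 4 comparisons lay between -0.21 and -0.17 and were not called. nCas9 was above GFP by 0.35 ± 0.09 (adjusted p = 0.00219) and 0.28 ± 0.091 (adjusted p = 0.0107), the second lost without GFP replicate 1 (0.0902) or nCas9 RNF2 replicate 1 (0.143). Against GFP the editors gave 0.031 ± 0.08 (adjusted p = 0.772) in ABEmax and -0.19 ± 0.08 (adjusted p = 0.0422) in Target-AID. The Target-AID call was lost without Target-AID HEKsite2 replicate 1 (0.0722), GFP replicate 2 (0.174), Target-AID HEKsite2 replicate 3 (0.0837), GFP replicate 3 (0.202), Target-AID RNF2 replicate 1 (0.0957) or Target-AID RNF2 replicate 3 (0.054), without both Target-AID replicate 3 libraries (0.105), with DESeq2 and in a fit of those groups alone.

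nCas9 and GFP are both negative controls, and they differed for several members. nCas9 against GFP called 4 members higher (CRYAB, HSPB11, BAG1 and BAG5) and 1 lower (BAG2) with HEKsite2, where the test called 38.4% of all genes, 19.6% higher and 18.8% lower. With RNF2 it called 5 higher and 2 lower (background 41.5% of all genes, 21% higher and 20.5% lower). The 5 of 10 members with HEKsite2 are near that background and the 7 of 10 with RNF2 above it, a difference that was not tested. The added member with RNF2 on the higher side was BAG3, at 0.34 ± 0.089 (adjusted p = 0.00215), and that on the lower side was BAG4. HSPB1 and HSPB8 were not called in either comparison. Against GFP, with each editor taken as the mean of its guide groups, ABEmax had 6 members higher and 1 lower (background 54% of all genes, 27% higher and 27% lower), and miniABEmax-V82G 6 and 1 (background 48.5% of all genes, 24.2% higher and 24.3% lower). Target-AID had 7 and 2 (background 51.9% of all genes, 27.4% higher and 24.6% lower) and SpACE 7 and 0 (background 43.3% of all genes, 21.4% higher and 21.9% lower). HSPB1, CRYAB, HSPB8, BAG1, BAG3 and BAG5 were called higher than GFP in all 4, and the share of all genes for which this holds is not given here. Of these, CRYAB, BAG1 and BAG5 were also called higher in nCas9 than in GFP with both guides, and BAG3 with RNF2. For these members a call against GFP is thus not particular to the editors, which says nothing of its size. BAG3 stood at 0.34 in nCas9 with RNF2 and was not called with HEKsite2. The CRYAB call in nCas9 with RNF2 was lost in the fits named above. BAG3 was above GFP by 2.47 ± 0.074 (adjusted p = 8.48e-28) in Target-AID and 1.49 ± 0.074 (adjusted p = 2.77e-19) in miniABEmax-V82G. The BAG1 call in SpACE, 0.19 ± 0.068 (adjusted p = 0.0236), was lost without SpACE HEKsite2 replicate 1 (0.0731), GFP replicate 3 (0.123) or SpACE RNF2 replicate 3 (0.062), the adjusted p in brackets. The comparisons with GFP share its 3 libraries.

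Between editors, each taken over both guides, miniABEmax-V82G had 0 members higher and 6 lower than ABEmax, where the test called 5.08% of all genes, 1.57% higher and 3.51% lower. The lower members were HSPB1, CRYAB, HSPB8, BAG1, BAG3 and BAG5, with CRYAB at -1.09 ± 0.21 (adjusted p = 5.94e-04) and HSPB8 at -0.54 ± 0.14 (adjusted p = 0.0146), the latter lost without ABEmax HEKsite2 replicate 3 (0.0789). Target-AID had 4 higher and 4 lower than ABEmax (background 40.5% of all genes, 21.1% higher and 19.4% lower), and 6 higher and 3 lower than miniABEmax-V82G (background 34.8% of all genes, 18.8% higher and 16% lower). The BAG5 call in the latter comparison, -0.13 ± 0.051 (adjusted p = 0.0387), was lost in 7 of the 12 fits without 1 library, with adjusted p up to 0.124, without both Target-AID replicate 3 libraries (0.1004) and with DESeq2. SpACE had 2 higher and 4 lower than ABEmax (background 21.3% of all genes, 10.3% higher and 11% lower). It had 2 higher and 3 lower than Target-AID (background 32% of all genes, 14.9% higher and 17.2% lower). Against miniABEmax-V82G, SpACE had 5 higher and 0 lower (background 5.95% of all genes, 3.21% higher and 2.74% lower), and the higher members were HSPB1, CRYAB, BAG2, BAG3 and BAG4. HSPB1 stood at 0.35 ± 0.073 (adjusted p = 0.00258) there and BAG2 at 0.25 ± 0.054 (adjusted p = 0.00433).

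Between guides, nCas9 had 1 member called, BAG4, where the test called 2.07% of all genes, 0.602% higher and 1.46% lower. ABEmax had 2, BAG4 and HSPB8 (background 2.26% of all genes, 0.472% higher and 1.79% lower). miniABEmax-V82G had 1 higher with RNF2, BAG5, and 3 lower, HSPB1, HSPB8 and BAG4 (background 9.94% of all genes, 4.67% higher and 5.26% lower). HSPB1 in miniABEmax-V82G was lower, at -0.43 ± 0.11 (adjusted p = 0.00912), lost without miniABEmax-V82G HEKsite2 replicate 2 (0.0588), the adjusted p in brackets. SpACE had 1, BAG4 (background 0.0411% of all genes, 0.00684% higher and 0.0342% lower). Target-AID had 0 members called by edgeR and 0 by DESeq2, where edgeR called 0% of all genes, and 4 members and 572 genes in all had an unadjusted p under 0.05. CRYAB in Target-AID stood at -0.97 ± 0.19 (adjusted p = 0.132) and HSPB8 at -0.68 ± 0.18 (adjusted p = 1). The test of whether an editor's difference from nCas9 depended on the guide called 0 members in ABEmax (0% of all genes, with 4 members and 596 genes in all at an unadjusted p under 0.05). It called 0 in miniABEmax-V82G (0.0137% of all genes, 0.00684% higher and 0.00684% lower, with 1 such member) and 0 in SpACE (0.0274% of all genes, 0.0205% higher and 0.00684% lower, with 2 such members), and DESeq2 gave 0 in each of the 3. BAG3 had interactions of -0.29 ± 0.12 (adjusted p = 1) in ABEmax and -0.34 ± 0.11 (adjusted p = 0.327) in Target-AID.

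**Figure D4:**
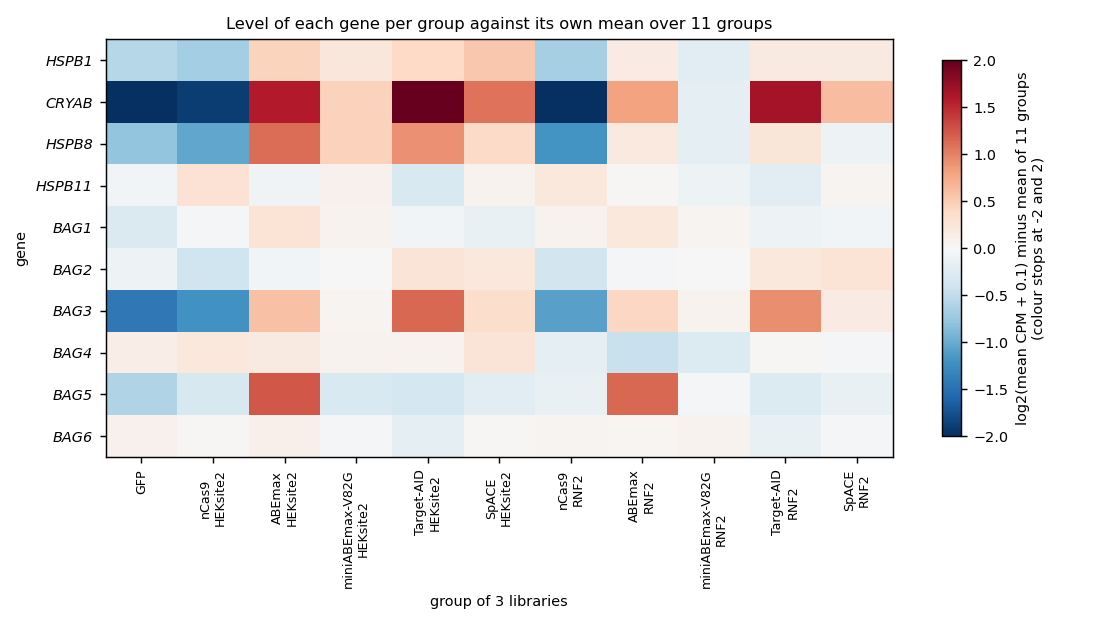
Level of each gene (rows) in each group of 3 libraries (columns) as log2(mean CPM + 0.1) minus the gene's own mean over the 11 groups, with colours ending at -2 and 2. The GFP and nCas9 columns are blue for HSPB1, CRYAB, HSPB8 and BAG3, BAG5 is red in the ABEmax columns, and BAG4 turns blue in the RNF2 columns of nCas9, ABEmax and miniABEmax-V82G.

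A list of 12 HSP70 and HSP110 chaperone genes, HSP70 being the partner that BAG domains bind, was followed first. It had 6 to 9 higher and 0 to 1 lower per comparison of an editor with nCas9. The median log2 fold change of the list was 0.19 to 0.79. In these 8 comparisons the test called 5.02% to 21.5% of all genes higher and 4.66% to 19.1% lower. The 3 with the smallest p for any difference were HSPA6, HSPA1B and HSPH1. HSPA6, the strictly inducible HSP70, was at 3.58 ± 0.449 CPM in GFP, 16.3 ± 1.26 CPM in nCas9 with HEKsite2, 237 ± 6.26 CPM in ABEmax and 1503 ± 83 CPM in Target-AID with that guide (SD, n = 3). Against nCas9 with HEKsite2 it rose by 6.52 ± 0.14 in Target-AID and by 3.86 ± 0.14 in ABEmax. HSPA1B, whose near-identical copy HSPA1A makes its count uncertain, rose by 3.39 ± 0.064 and 2.20 ± 0.062, and HSPH1, an HSP110 that recharges HSP70, by 1.83 ± 0.078 and 1.31 ± 0.078. In nCas9 against GFP the same list had 2 higher and 6 lower with HEKsite2 (background 19.6% of all genes higher and 18.8% lower). HSPA1B was at -1.17 ± 0.06 there and HSPA6 at 2.19 ± 0.23.

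A list of 15 other HSF1 targets and co-chaperones had 10 to 13 higher and 0 to 1 lower per comparison with nCas9, and a median of 0.25 to 0.57. The background was that given above, 5.02% to 21.5% of all genes higher and 4.66% to 19.1% lower. DNAJB1, the J-domain partner of HSP70, rose by 3.70 ± 0.086 in Target-AID and 2.12 ± 0.082 in ABEmax with HEKsite2. SERPINH1, a collagen chaperone, rose by 1.21 ± 0.063 and 1.32 ± 0.064, and CHORDC1, an HSP90 co-chaperone, by 1.21 ± 0.069 and 0.94 ± 0.069. In nCas9 against GFP this list had 1 higher and 7 lower with HEKsite2 (background 19.6% of all genes higher and 18.8% lower). With RNF2 it had 1 and 8 (background 21% higher and 20.5% lower). Of 5 genes, heat shock factors together with HSBP1, 4 were tested, with 0 to 1 higher and 0 to 2 lower per comparison with nCas9, beside the same background. HSBP1, a negative regulator of HSF1, was at -0.49 ± 0.073 (adjusted p = 8.32e-07) in Target-AID with HEKsite2, HSF1 itself at -0.21 ± 0.077 (adjusted p = 0.0271) and HSF2 at 0.061 ± 0.058 (adjusted p = 0.433). The 7 other small heat shock genes on the list (HSPB2, HSPB3, CRYAA, HSPB6, HSPB7, HSPB9 and ODF1) were in the table but did not pass the filter.

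Partners of single members were followed in 4 further lists. The background of their comparisons with nCas9 was 5.02% to 21.5% of all genes higher and 4.66% to 19.1% lower. Whether a list departs from this background was not tested. The 9 genes of BAG3 and HSPB8 selective autophagy had 1 to 3 higher and 0 to 4 lower, with DNAJB6, a J-domain protein against aggregation, at 0.59 ± 0.053 (adjusted p = 3.98e-11) in ABEmax with HEKsite2. SQSTM1, the autophagy receptor p62, was at -0.41 ± 0.057 (adjusted p = 2.36e-07) and DNAJB2 at 0.67 ± 0.093 (adjusted p = 2.50e-07) in Target-AID with that guide. Of the BAG6 complex list, 7 genes were in the table and tested, with 0 to 1 higher and 0 to 2 lower against nCas9. In nCas9 against GFP it had 5 higher and 1 lower with RNF2 (background 21% higher and 20.5% lower) and 4 higher and 0 lower with HEKsite2 (background 19.6% and 18.8%), among them RNF126, a ligase that works with BAG6, at 0.63 ± 0.11 (adjusted p = 9.71e-06) and GET4, a BAG6 partner, at 0.56 ± 0.10 (adjusted p = 4.13e-05). WRB, the receptor for tail-anchored proteins in the endoplasmic reticulum, was at -0.37 ± 0.078 (adjusted p = 8.22e-04) in ABEmax against nCas9 with HEKsite2. The 16 IFT-B partners of HSPB11 had 0 to 5 higher and 0 to 7 lower. In Target-AID with HEKsite2, where HSPB11 fell, 1 of them was called higher and 7 lower, beside 21.5% of all genes higher and 19.1% lower. The 1 higher gene was IFT88, at 0.48 ± 0.12 (adjusted p = 0.0014), and none of the 7 lower genes is among the 3 with the smallest p for any difference. In Target-AID with RNF2, 4 of the 16 were called higher and 2 lower, beside 19.4% and 15.8% of all genes. Among the higher were CLUAP1, at 0.50 ± 0.084 (adjusted p = 9.36e-06), and TTC26, at 0.29 ± 0.068 (adjusted p = 8.08e-04). CLUAP1 stood at 28.2 CPM in Target-AID with RNF2 and 29.5 CPM with HEKsite2, against 19.9 and 28.6 CPM in nCas9. TTC26 stood at 59.6 and 61.0 CPM in Target-AID, against 48.7 and 64.6 CPM in nCas9, in the same order of guides. The 7 partners of BAG4 and BAG1 had 0 to 1 higher and 0 to 2 lower. TNFRSF1A, the TNF receptor that BAG4 binds, was at 0.65 ± 0.089 (adjusted p = 1.13e-06) in ABEmax with HEKsite2, and PSMD4, a proteasome ubiquitin receptor, at -0.20 ± 0.065 (adjusted p = 0.0302). In ABEmax with RNF2, 0 of the 7 were called against nCas9. TNFRSF1A stood there at 28.0 ± 1.14 CPM, against 24.7 ± 2.78 CPM in nCas9 (SD, n = 3).

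Over the 11 group means of log2 CPM, the members fell into sets with like order. The correlation was 0.979 between CRYAB and BAG3, 0.940 between HSPB1 and HSPB8, 0.910 between HSPB1 and CRYAB and 0.834 between BAG1 and BAG5, and it was -0.0999 between BAG3 and BAG4. These points share libraries and scaling, and the values are descriptions. Among 12701 genes outside the members, ATF3, a stress-induced transcription factor, was most like CRYAB with r = 0.988, then RAPGEF3 (0.983), ZNF473 (0.979), DNAJB5 (0.978) and HSPA6 (0.967). RAPGEF3 was most like BAG3 with r = 0.990, followed by ATF3, HSPA6, CHORDC1 and HSPH1 (0.971 to 0.976). ATG7 was most like HSPB8 with r = 0.969, then UBR1 (0.967), ITCH (0.949), IP6K2 (0.947) and SENP7 (0.946), but ATG7 ranged over 0.36 log2 units and HSPB8 over 2.23. ATF3 was at 69 ± 4.85 CPM in GFP, 138 ± 7.13 CPM in nCas9 and 436 ± 10.1 CPM in ABEmax with HEKsite2 (SD, n = 3).

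Per kilobase of merged exons, a scale that allows genes to be compared, BAG6 was first of the 10 in GFP at 56.8 CPM per kb, followed by BAG4 at 30.0 and HSPB1 at 29.6. BAG3 was at 16 and BAG5 at 15 CPM per kb there. In Target-AID with HEKsite2, BAG3 was first at 95.6 CPM per kb, HSPB1 second at 58.2 and BAG6 next at 46.8. ABEmax with HEKsite2 had BAG3 at 64.8, HSPB1 at 60.1, BAG6 at 57.4 and BAG5 at 54.1 CPM per kb. BAG1, HSPB11 and BAG2 kept the sixth, seventh and eighth places in all 11 groups. CRYAB and HSPB8 were the last, CRYAB passing HSPB8 in the Target-AID groups alone, at 6.67 against 3.43 CPM per kb with HEKsite2.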

How the data were processed

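The authors deposited 1 table of raw counts of reads, with gene symbols as rows and 33 libraries as columns; per the labels' protocols the RNA was total RNA and the kit a stranded one. The submitters' processing notes name STAR without a version, GATK 3.8.1, Picard 2.7 and the build GRCh38 (hg38), and give no roles. Which tool counted reads, with which strand setting and annotation, is not given in the sources used here. Each column matched 1 sample by its construct, guide and replicate (0 were left over), although the names of the SpACE columns include UGI, a word the labels lack.

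Genes were kept by edgeR's filterByExpr (minimum count 10). Counts were scaled by TMM and fitted with 1 mean per group over all 33 libraries, which leaves 22 residual degrees of freedom. The 29 comparisons used the two-sided quasi-likelihood F-test of edgeR 4.0.16 (R 4.3.3, limma 3.58.1), with Benjamini-Hochberg adjustment over the 14613 genes tested and a threshold of 0.05. An editor compared over both guides is the mean of its log2 group levels. The SE comes from the fit and can be below counting error where a group holds few reads. Total counts of 6790209 to 11200406 per library set the counting precision. Alternatives were RLE scaling, no filter, DESeq2 1.42.0, a replicate block, a fit of the compared groups alone, leaving out each library and, added after seeing the data, leaving out both Target-AID replicate 3 libraries. Replicate numbers were not used to pair the samples in the main fit.

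All 10 members are named. From each pathway list the 3 genes with the smallest p for any difference are named, except 1 that is not reported here, and for the 3 members with the widest range the 5 genes of most similar pattern among those with a mean log2 CPM (prior count 2) of at least 1. Gene positions and overlaps come from GENCODE 29 (GRCh38), promoter sequences from RefSeq (GRCh38.p14). The members and lists were chosen with earlier results of these data known.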

Additional observations from a re-analysis of the deposited data

Results flagged for a closer look

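The difference of BAG4 between Target-AID and nCas9 passed the test for a dependence on the guide, but not under most alternatives. It was -0.15 log2 with HEKsite2 and 0.19 log2 with RNF2, and the interaction, which was tested directly, was 0.35 ± 0.079 with an adjusted p of 0.0444 in edgeR's quasi-likelihood test. BAG4 stood at 142 ± 2.88 CPM in nCas9 with HEKsite2 and 108 ± 6.71 CPM with RNF2 (SD, n = 3), against 128 ± 10.5 and 124 ± 3.91 CPM in Target-AID. The interaction was lost in 10 of the 12 fits without 1 library, without the filter (adjusted p = 0.0639) and in the fit of the compared groups alone (0.456), and the 3 libraries of a group are too few for a test of single outlying samples.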

How the results depend on the processing

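Of 142 calls of a member, none changed sign under any alternative run. Under the alternatives that kept all libraries, 697 of 707 values kept their call, and of the 1182 values without 1 library 1109 did. A call for which an alternative gave no fold change or no adjusted p is not among these values. The 10 losses with all libraries were BAG4 in Target-AID against nCas9 with HEKsite2 (no filter, adjusted p = 0.0511; compared groups alone, 0.0791) and with RNF2 (compared groups alone, 0.0762), its Target-AID interaction (0.0639 and 0.456), BAG1 in miniABEmax-V82G against ABEmax (no filter, 0.0664; DESeq2, 0.0546), HSPB11 in Target-AID against GFP (compared groups alone, 0.0605; DESeq2, 0.0882) and BAG5 in Target-AID against miniABEmax-V82G (DESeq2, 0.0522). Without the filter, members called between guides were 4 in ABEmax (2 with it), 1 in Target-AID (0) and 2 in SpACE (1), and the Target-AID interaction had 0 (1), as it did in the fit of the compared groups alone. The cause was not tested.

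Leaving out each library in turn, members called ranged from 4 to 6 for miniABEmax-V82G against ABEmax, 3 to 6 for SpACE against miniABEmax-V82G, 4 to 7 for nCas9 against GFP with RNF2, and 4 to 6 for miniABEmax-V82G against nCas9 with RNF2. Between guides it was 1 to 4 for miniABEmax-V82G, 1 to 2 for ABEmax, and 0 to 1 for both SpACE and Target-AID, as for the Target-AID interaction. Same-numbered libraries deviated together weakly at most (r from -0.198 to 0.215 over 165 pairs, median 0.023, 24 above 0.1). The replicate 3 libraries of Target-AID, which stood apart, had r = 0.166 between the guides. With the replicate number as a block no call of a member changed, with 8 members called for ABEmax against nCas9 with HEKsite2. Over all genes that comparison then had 2513 called (2318 without the block).

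Without both Target-AID replicate 3 libraries, 45 of 48 calls were kept and the Target-AID interaction had 0 members (1).

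Counts over all genes moved more. Without 1 library, genes called fell to as few as 1445 for ABEmax against nCas9 with HEKsite2 (2318 with all libraries; without nCas9 HEKsite2 replicate 1) and 827 with RNF2 (1632; nCas9 RNF2 replicate 2). For miniABEmax-V82G they fell to 858 (1511; its HEKsite2 replicate 3) and 874 (1842; nCas9 RNF2 replicate 2), for SpACE to 1432 with RNF2 (2150; nCas9 RNF2 replicate 3) and to 469 against miniABEmax-V82G (869; SpACE RNF2 replicate 1). Between guides they fell to 98 for nCas9 (302; RNF2 replicate 3), 181 for ABEmax (330; HEKsite2 replicate 3), 496 for miniABEmax-V82G (1452; HEKsite2 replicate 2) and 1 for SpACE (6; HEKsite2 replicate 1). Those of Target-AID between guides ranged from 0 to 2 (0), the Target-AID interaction from 7 to 39 (24) and that of miniABEmax-V82G from 1 to 2 (2). In the fit of the compared groups alone, miniABEmax-V82G against nCas9 with RNF2 had 2865 genes called (1842 in the joint fit), miniABEmax-V82G between guides 2693 (1452), SpACE between guides 11 (6), and the interactions of miniABEmax-V82G and Target-AID 5 (2) and 1 (24). Without the filter, Target-AID and SpACE between guides had 8 (0) and 68 (6), and the interactions of ABEmax, miniABEmax-V82G, Target-AID and SpACE 5 (0), 18 (2), 55 (24) and 44 (4). The block gave 7 (4) for the SpACE interaction, leaving out both Target-AID libraries 15 (24) for that of Target-AID, and DESeq2 gave 1 (2), 38 (24) and 9 (4) for those of miniABEmax-V82G, Target-AID and SpACE. CRYAB, with 1 read in GFP and 10 to 15 in nCas9, is the member whose precision depth limits most.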
